A study of Rattus norvegicus with 15 samples.

Results

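Proximal tubules isolated from the kidneys of saline-injected rats were compared with whole kidneys of saline-injected rats, on 3 arrays against 3 arrays of the 15 in the series. The 6 arrays were taken by their labels, and the comparison was chosen with earlier results of these data known. All rats were male, of the Wistar/ST strain and 8 weeks old, with no transgene or deletion named. Saline was injected into the peritoneum as the sham treatment, in the volume used for cisplatin (stock of 0.5 mg/mL), and tubules were separated by hand under a microscope. The other 9 arrays held tubules of rats given 2 mg/kg or 10 mg/kg cisplatin, a platinum drug toxic to the proximal tubule, and whole kidneys of rats given 10 mg/kg, 3 arrays each. The labels give neither how long after injection the kidneys were taken nor whether an array stands for 1 animal or a pool, so p-values here cover only the spread from array to array, which may be technical.

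The proximal tubule is the first part of the nephron after the glomerulus and takes back most of the filtered glucose, amino acids, phosphate and bicarbonate. It is divided along its length into the segments S1, S2 and S3: the early segments lie in the cortex and carry the high-capacity glucose transporter SGLT2, and S3 is the straight part that reaches into the outer medulla. It also makes glucose and ammonia, activates vitamin D and secretes organic anions and drugs. A whole kidney holds these same segments together with glomeruli, the loop of Henle, distal tubules, collecting ducts, vessels, stroma and immune cells.

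Signals were on the log2 scale after quantile normalization, and a difference is the tubule mean minus the whole-kidney mean, with its standard error (SE) from a limma model of all 15 arrays. A probe was called when the limma p-value, adjusted by Benjamini-Hochberg over 26601 probes, was under 0.05. The files hold no measure of background or detection, so a fold is a ratio of signals, and a dim signal is not known to lie above background. In these bulk samples, fewer cells of a type and less RNA per cell cannot be told apart. The raw median signals were 245 to 470 for the 3 saline tubule arrays and 201 to 269 for the 3 saline whole-kidney arrays. Arrays correlated at 0.917 to 0.929 within saline tubules, at 0.857 to 0.926 within saline whole kidneys and at 0.814 to 0.904 between them. Whole-kidney replicate 3 was least like the rest, its correlations with the other 14 arrays averaging 0.813. No 2 arrays were identical. Without whole-kidney replicate 3 the limma count below was 568 probes, against 954 with it.

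Saline tubules carried higher signals than saline whole kidneys for 7 of 12 early proximal tubule genes. These were led by the glucose transporter gene Slc5a2 (log2 difference 8.74 ± 0.69, SE, 3 arrays against 3), the amino acid transporter gene Slc7a7 (7.02 ± 0.39) and the bicarbonate transporter gene Slc4a4 (5.29 ± 0.42). In the same 12, Slc6a18 was lower (-1.85 ± 0.46) and 4 were not called, among them Slc22a6 at 1.11 ± 0.40 and Cubn at 0.39 ± 0.40. Over all 401 genes with a name here, 16.2% were called higher and 7.98% lower. The gene lists were written with earlier results of these data known, so counts within them are descriptions. Genes of glucose production such as G6pc1 (2.97 ± 0.61) and the dopamine-forming enzyme gene Ddc (5.49 ± 0.48) were higher too. Of 7 S3 genes 3 were lower in tubules, Slc7a12 (-3.86 ± 0.59), Gc (-3.54 ± 0.80) and Slc22a7 (-3.31 ± 0.55), and 4 were not called, among them Slc22a25 at 1.70 ± 0.53 and Slc27a2 at 0.68 ± 0.31. The oxidative stress gene Osgin1 (-4.25 ± 0.56) and genes of S100 proteins such as S100a11 (-3.16 ± 0.44) were lower as well. The calls of Gc and G6pc1 were lost on leaving out 1 array, any of 5 for Gc (-3.60 to -3.05, limma adjusted p 0.0610 to 0.111) and any of 3 for G6pc1 (2.83 to 2.92, limma adjusted p 0.0508 to 0.0561).

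The tubules differed from whole kidneys at 954 probes by limma, 3.59% of those tested, with 565 higher in tubules (2.12%) and 389 lower (1.46%). The higher probes made up 59.2% of the calls, 70.0% with median centring in place of quantile normalization and 94.7% with no scaling, which moved the median of all probes from -0.01 to 0.61 on the log2 scale. Among the called probes 111 were higher and 60 lower by more than 8-fold. A gene name was available for 401 probes, all of them among the 1219 in the authors' own series table. No source used here says how those 1219 were chosen, and they may have been chosen on these samples, so a count over named genes is not independent evidence of a direction. Of the 401 named genes 97 (24.2%) were called, 65 higher (16.2%) and 32 lower (7.98%). Higher genes made up 67.0% of these calls, 79.8% with median centring and 93.6% with no scaling. The median difference was 0.23 over the named genes. Of the 25382 probes outside the authors' table, 744 were called, 413 higher and 331 lower, and these have no name here. The groups did not overlap on any array for 24% of all probes and 60.3% of the named genes. Among the 20 probes that rose most, with log2 differences of 5.01 to 8.74, 6 had a name. Among the 20 that fell most, between -7.63 and -3.84, only 2 had one.

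The label of the tubule samples was set against marker genes. The marker lists, like all lists here, were written with earlier results of these data known. Their counts are descriptions and do not test the label. Counts for this and all later lists are to be read against all named genes, of which 16.2% were called higher and 7.98% lower. Of 19 S1 and S2 markers, 12 had a named probe, and 7 of the 12 were called higher in tubules, 1 lower and 4 neither, with a median difference of 2.27. Of 19 S3 markers 7 had a named probe, and of these 0 were called higher and 3 lower, with a median of -1.11. The 2 leukocyte markers with a named probe, the complement genes C1qa and C1qc, differed by 0.40 ± 0.40 (SE, limma adjusted p = 0.694) and 0.77 ± 0.43 (limma adjusted p = 0.407). Guca2a, the 1 named gene in the list of the thick ascending limb and distal convoluted tubule, differed by -1.004 ± 0.44 (limma adjusted p = 0.268). Markers of glomeruli, endothelium, stroma, collecting duct and red cells had 0 named probes, so their levels in the tubule samples were not analysed here. The part that other cells of the kidney have in the differences below was not tested.

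**Figure D1:**
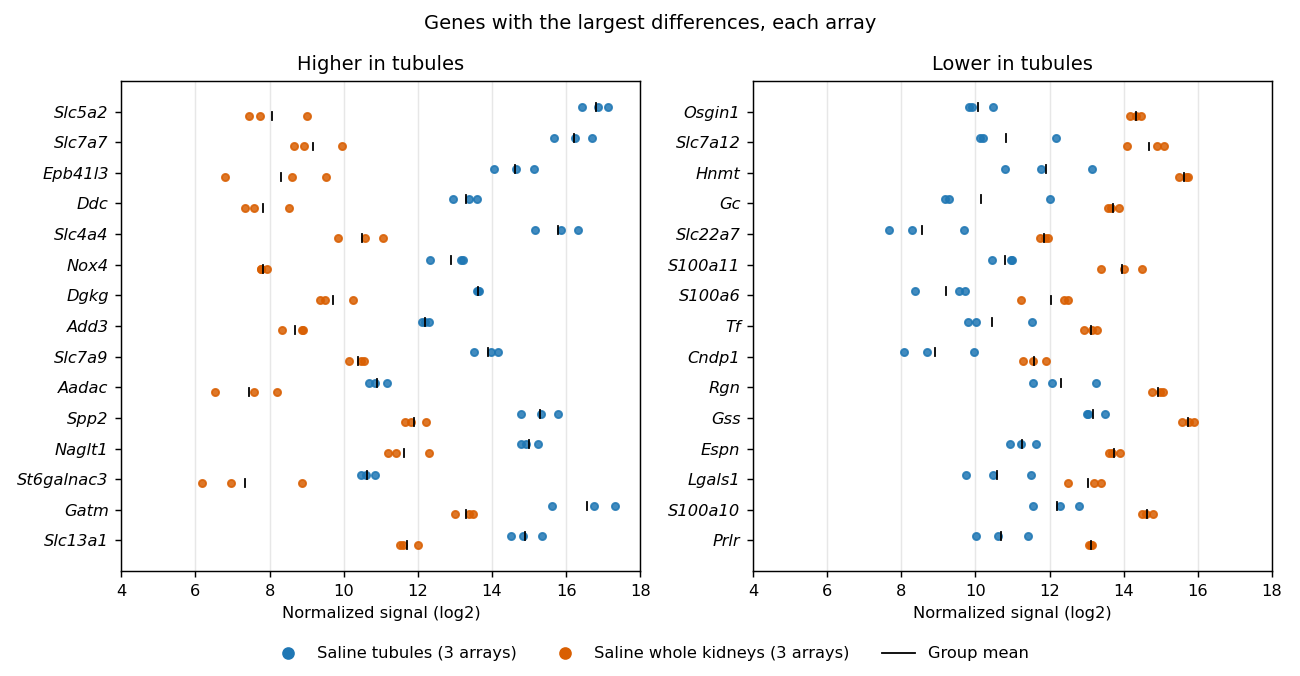
Normalized log2 signal (horizontal axis) on each of the 3 saline tubule arrays (blue) and 3 saline whole-kidney arrays (orange) for the 15 named genes with the largest rise (left) and the 15 with the largest fall (right), with black ticks at group means. The groups do not overlap for any of the 30 genes, which was a condition for being shown, and the gap is widest for Slc5a2.

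The 3 genes whose promoters carried a match to the HNF1 motif are shown first, because HNF1 factors are transcription factors of the proximal tubule and because these 3 genes went different ways. The HNF1 site, whose 10 bases stand in capitals in the lines and in which the seventh base may be any, was sought on both strands in the 300 bases around each RefSeq gene start (assembly GRCr8), 250 before and 50 after. Each line gives the match in capitals with up to 40 bases on either side, 5′ to 3′ on the gene's own strand.
G6pc1, higher in tubules: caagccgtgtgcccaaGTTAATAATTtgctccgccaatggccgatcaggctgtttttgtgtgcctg
Gc, lower in tubules: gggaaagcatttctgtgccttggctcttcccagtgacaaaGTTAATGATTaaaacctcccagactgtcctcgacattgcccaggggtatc
Slc7a12, lower in tubules: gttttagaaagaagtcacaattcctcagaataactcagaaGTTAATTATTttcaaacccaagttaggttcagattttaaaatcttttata
The promoters searched were chr10:86807409-86807708 on the plus strand for G6pc1, chr14:18916005-18916304 on the plus strand for Gc and chr2:88868054-88868353 on the minus strand for Slc7a12. The first base of the match lay at -234, -194 and -88 from the gene start, in the same order. The motif was held by 95 of the 27457 RefSeq promoters (0.346%), against 1 of 54 among higher genes (1.85%) and 2 of 29 among lower genes (6.90%) that had a promoter there. A match to CAAAGTCCA, a motif of HNF4A, was held by 103 of all promoters (0.375%), 0 of the 54 and 1 of the 29, that of Blvra, a biliverdin reductase gene. The TATA box letters TATAAA were in 3916 of all promoters (14.3%), 5 of the 54 (9.26%) and 4 of the 29 (13.8%). The called genes all come from the named genes, of which 329 had a promoter there. Among these 329, the HNF1 motif was held by 3 (0.912%), the HNF4A motif by 4 (1.22%) and TATAAA by 28 (8.51%). These are descriptions of the letters in 1 window per gene, and 3 matches are too few to compare shares.

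Among S1 and S2 markers, Slc5a2 differed most of all named genes. It encodes SGLT2, the sodium-glucose transporter that reclaims most filtered glucose. Its log2 signal was 16.44, 16.87 and 17.12 on the 3 saline tubule arrays and 7.75, 7.45 and 9.01 on the 3 saline whole-kidney arrays. All tubule arrays lay far above all whole-kidney arrays, where the signal sat near the middle of all probes, at a mean percentile of 47.7. The difference was 8.74 ± 0.69 (SE), a 426-fold ratio of signals (limma adjusted p = 9.14e-06). Slc7a7, the y+LAT1 subunit that exports basic amino acids into the blood, had log2 signals of 15.67, 16.23 and 16.70 in tubules and 9.96, 8.93 and 8.65 in whole kidneys. Again no arrays overlapped, and the difference of 7.02 ± 0.39 was 130-fold (limma adjusted p = 1.45e-06). Slc4a4 encodes NBCe1, the sodium-bicarbonate cotransporter of the basolateral membrane. Its signals were 15.15, 15.85 and 16.32 in tubules and 11.05, 9.84 and 10.57 in whole kidneys, a difference of 5.29 ± 0.42 or 39.0-fold (limma adjusted p = 9.14e-06). For all 3 genes the lowest tubule array was replicate 1 and the highest was replicate 3.

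Slc7a9 encodes b0,+AT, the light chain of the luminal cystine transporter mutated in cystinuria. It read 13.52, 14.17 and 13.98 in tubules and 10.47, 10.14 and 10.56 in whole kidneys, and differed by 3.502 ± 0.34 (limma adjusted p = 7.49e-05). Slc3a1, which encodes the heavy chain of the same transporter and is strongest in S3, did not follow. It read 16.85, 15.75 and 16.001 in tubules and 17.39, 17.29 and 17.24 in whole kidneys, a difference of -1.11 ± 0.37 that was not called (limma adjusted p = 0.130). The 2 subunits of 1 transporter thus lay on opposite sides of 0, and the difference between these 2 genes was not tested. Spp2, a secreted phosphoprotein, was higher by 3.40 ± 0.38 (limma adjusted p = 0.000208), and Gatm, the enzyme of the first step of creatine synthesis, by 3.27 ± 0.47 (limma adjusted p = 0.00134). Slc34a1, the sodium-phosphate cotransporter NaPi-IIa, was among the brightest probes in both samples and differed by 1.28 ± 0.29 (limma adjusted p = 0.0248). Slc34a1 was not called with median centring (1.58, limma adjusted p = 0.0866), nor on leaving out any 1 of tubule replicates 2 and 3 and whole-kidney replicates 1 and 3, where the difference was 1.14 to 1.31 and the limma adjusted p 0.0602 to 0.101.

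The other S1 and S2 markers moved less or the other way. The organic anion transporter Slc22a6 differed by 1.11 ± 0.40 (limma adjusted p = 0.160), the folate receptor Folr1 by 0.51 ± 0.35 (limma adjusted p = 0.519), the endocytic receptor Cubn by 0.39 ± 0.40 (limma adjusted p = 0.697) and the imino acid transporter Slc6a20a by 0.27 ± 0.30 (limma adjusted p = 0.732). Slc6a18, a neutral amino acid transporter of the brush border described in mouse mainly from the later segments, was the 1 gene of the 12 called lower, at -1.85 ± 0.46 (limma adjusted p = 0.0406). That call did not survive leaving out any 1 of the 6 arrays (-1.95 to -1.69, limma adjusted p 0.0878 to 0.137), nor median centring (-1.47, limma adjusted p = 0.168) or no scaling (-0.84, limma adjusted p = 0.489).

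The 3 S3 markers called lower in tubules were Slc7a12, Gc and Slc22a7. Slc7a12 is an amino acid transporter whose log2 signal was 12.16, 10.12 and 10.20 in tubules and 14.91, 14.08 and 15.08 in whole kidneys. The difference was -3.86 ± 0.59, a 14.5-fold higher signal in whole kidneys (limma adjusted p = 0.00218). Gc, which encodes the vitamin D-binding protein, read 12.02, 9.29 and 9.18 in tubules and 13.67, 13.57 and 13.87 in whole kidneys. Its difference of -3.54 ± 0.80 was 11.6-fold (limma adjusted p = 0.0251). Slc22a7, the organic anion transporter OAT2, read 9.68, 7.67 and 8.30 against 11.75, 11.94 and 11.88, a difference of -3.31 ± 0.55 or 9.90-fold (limma adjusted p = 0.00375). In each of the 3 genes tubule replicate 1 lay nearest to the whole kidneys, without reaching any of them. The Gc call was lost without any 1 array other than tubule replicate 1 (-3.60 to -3.05, limma adjusted p 0.0610 to 0.111). All 3 kept their calls with median centring and with no scaling. With only the saline arrays in the fit Gc was not called (-3.56, limma adjusted p = 0.0806), and the other genes of the 3 were.

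Of the 12 S1 and S2 markers, 9 were lowest on tubule replicate 1 and 9 were highest on tubule replicate 3. Of the 7 S3 markers, 4 were highest on tubule replicate 1 and 3 on replicate 3, and 6 were lowest on replicate 2. These counts cover markers that were called and markers that were not, and they were made after the values were seen. Whether the saline tubule arrays differed among themselves more in these genes than in others was not tested. The remaining S3 markers were not called. The transporter Slc22a25 differed by 1.70 ± 0.53 (limma adjusted p = 0.103), the fatty acyl-CoA synthetase Slc27a2 by 0.68 ± 0.31 (limma adjusted p = 0.279) and the water channel Aqp1, also a gene of the thin descending limb, by -0.50 ± 0.40 (limma adjusted p = 0.592).

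**Figure D2:**
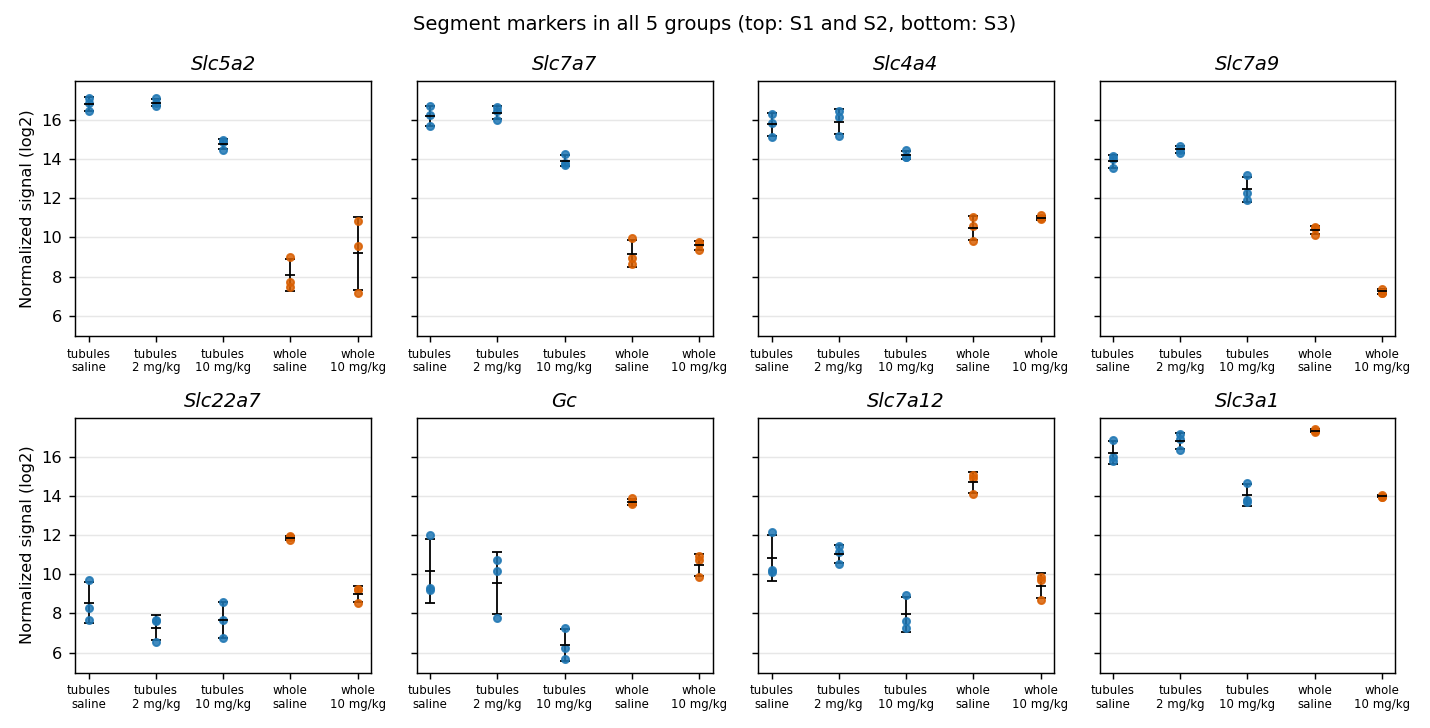
Normalized log2 signal (vertical axis) of 4 S1 and S2 genes (top) and 4 S3 genes (bottom) on each array of all 5 groups, with black marks for the mean and SD over 3 arrays. The 8 genes were picked with their values known, from 12 and 7 markers: these top 4 lie higher in saline tubules (blue) than in saline whole kidneys (orange) and these bottom 4 lower, whereas Slc6a18 of the first list and Slc22a25 and Slc27a2 of the second, not shown, lie on the other side.

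In the lists of membrane transport, genes went both ways. Of 10 amino acid and peptide transporters, 3 were higher (Slc7a7, Slc7a9 and Slc16a10), 2 lower (Slc7a12 and Slc6a18) and 5 not called, with a median of 0.08. Among all named genes 16.2% were higher and 7.98% lower. Slc16a10, the aromatic amino acid transporter TAT1, differed by 1.99 ± 0.49 (limma adjusted p = 0.0365), a call lost without any 1 of 5 arrays, all but whole-kidney replicate 2 (1.64 to 2.09, limma adjusted p 0.0674 to 0.142). Of 6 genes of phosphate, sulfate and carboxylate transport, 3 were higher and 0 lower. Slc13a1, the luminal sulfate transporter NaS1, read 14.52, 14.83 and 15.35 in tubules and 11.58, 12.01 and 11.53 in whole kidneys. No array overlapped, and the difference was 3.19 ± 0.37, or 9.16-fold (limma adjusted p = 0.000248). Slc34a3, the phosphate transporter NaPi-IIc, was higher by 2.58 ± 0.34 (limma adjusted p = 0.000666). The dicarboxylate transporter Slc13a3 (1.26 ± 0.46, limma adjusted p = 0.173) and the scaffold protein gene Pdzk1 (0.95 ± 0.27, limma adjusted p = 0.0768) did not pass.

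Both acid-base transporters of the bicarbonate list were higher, Slc4a4 and Slc9a3, while the water channels Aqp1 and Aqp7 were not called. Slc9a3 encodes NHE3, the sodium-proton exchanger of the brush border, and differed by 2.24 ± 0.49 (limma adjusted p = 0.0207). Without any 1 of tubule replicates 2 and 3 and whole-kidney replicates 2 and 3 it no longer passed (2.02 to 2.32, limma adjusted p 0.0573 to 0.0856). Of 4 organic ion transporters, 1 was higher and 1 lower. Slc22a5, the carnitine transporter OCTN2, was higher by 2.33 ± 0.27 (limma adjusted p = 0.000277), and Slc22a7 was the lower one. Naglt1, a sodium-dependent glucose transporter cloned from rat kidney, read 15.24, 14.79 and 14.92 in tubules and 11.40, 11.19 and 12.30 in whole kidneys. It was higher by 3.36 ± 0.44, or 10.2-fold (limma adjusted p = 0.000669).

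In sugar metabolism, Sord, the sorbitol dehydrogenase, was higher by 2.09 ± 0.33 (limma adjusted p = 0.00293). Rgn, a lactonase of the vitamin C pathway also called regucalcin, was lower, at 13.26, 12.07 and 11.56 in tubules against 14.77, 15.07 and 14.97 in whole kidneys. The difference was -2.64 ± 0.48 (limma adjusted p = 0.00729), and with no scaling it was -1.58 and not called (limma adjusted p = 0.182). The fructose transporter Slc2a5 differed by -1.40 ± 0.41 and did not pass (limma adjusted p = 0.0814). Miox, the first enzyme of inositol breakdown and found almost only in proximal tubules, was close to level, at 17.42, 17.94 and 17.89 in tubules and 17.69, 17.94 and 17.70 in whole kidneys. Its difference was -0.03 ± 0.32, with a 95% interval of -0.72 to 0.66.

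Of 5 genes of gluconeogenesis and ammonia production, 4 were higher in tubules and 0 lower, with a median of 1.62. Among all named genes 16.2% were higher, and the median was 0.23. G6pc1, the catalytic subunit of glucose-6-phosphatase that releases free glucose, read 12.75, 12.35 and 12.70 in tubules and 9.89, 9.38 and 9.64 in whole kidneys. The groups were well apart, with a difference of 2.97 ± 0.61, or 7.81-fold (limma adjusted p = 0.0144). Slc37a4, which carries glucose-6-phosphate to that enzyme, was higher by 1.63 ± 0.32 (limma adjusted p = 0.0119). Fbp1, fructose-1,6-bisphosphatase, was higher by 1.62 ± 0.33 (limma adjusted p = 0.0143), and Glud1, the glutamate dehydrogenase of ammonia production, by 1.57 ± 0.36 (limma adjusted p = 0.0262). The fifth, the pyruvate carboxylase gene Pc, differed by 0.998 ± 0.45 (limma adjusted p = 0.281). The count of 4 fell to 1 with only the 6 saline arrays in the fit. It was also 1 without tubule replicate 1 or replicate 3, and 2 without whole-kidney replicate 1 or 2. Glud1 was lost without any 1 of the 6 arrays (1.46 to 1.68, limma adjusted p 0.0539 to 0.0940), G6pc1 without 3 of them (2.83 to 2.92, limma adjusted p 0.0508 to 0.0561), Fbp1 without 2 (1.51 to 1.53, limma adjusted p 0.0532 to 0.0573) and Slc37a4 without tubule replicate 3 (1.38, limma adjusted p = 0.0553).

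In the list of amino acid, tryptophan and amine metabolism, 14 genes had a named probe, and 5 were higher, 3 lower and 6 not called. Ddc, the decarboxylase that makes dopamine from L-DOPA in the proximal tubule, read 12.94, 13.37 and 13.61 in tubules and 7.34, 8.53 and 7.57 in whole kidneys. No array overlapped, and the difference of 5.49 ± 0.48 was 44.9-fold (limma adjusted p = 2.59e-05). Hnmt, which inactivates histamine, went the other way. It read 13.15, 10.81 and 11.77 in tubules and 15.48, 15.67 and 15.73 in whole kidneys, a difference of -3.72 ± 0.67 or 13.1-fold (limma adjusted p = 0.00662). Asl, the argininosuccinate lyase that forms arginine, was higher by 2.91 ± 0.36 (limma adjusted p = 0.000452), while its partner Ass1, which acts just before it, differed by 1.85 ± 0.61 and did not pass (limma adjusted p = 0.130). Acmsd, a decarboxylase of tryptophan breakdown, was higher by 2.80 ± 0.59 (limma adjusted p = 0.0163), Hpd of tyrosine breakdown by 1.74 ± 0.34 (limma adjusted p = 0.00989) and Psat1 of serine synthesis by 1.51 ± 0.35 (limma adjusted p = 0.0278). Cth, which makes cysteine from cystathionine, was lower, differing by -1.89 ± 0.39 (limma adjusted p = 0.0143), and Oat, ornithine aminotransferase, by -1.55 ± 0.38 (limma adjusted p = 0.0394). Several of these calls lay near the threshold and were lost with fewer arrays. Psat1 was lost without any 1 of the 6 (1.34 to 1.63, limma adjusted p 0.0542 to 0.107) and Oat without any 1 but tubule replicate 1 (-1.64 to -1.28, limma adjusted p 0.0740 to 0.149). Acmsd was lost without tubule replicate 2, tubule replicate 3 or whole-kidney replicate 3 (2.44 to 2.66, limma adjusted p 0.0680 to 0.0785), Hpd without tubule replicate 3 (1.53, limma adjusted p = 0.0501), and Cth without tubule replicate 2 or whole-kidney replicate 3 (-1.81 to -1.46, limma adjusted p 0.0565 to 0.0590). Cth and Oat also failed with median centring (-1.48 and -1.09, limma adjusted p = 0.151 and 0.296).

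Creatine synthesis was represented by Gatm, higher as given above. Among the other 7 genes of its list, Cndp1, Acy1 and Oat were lower and 4 were not called. Cndp1, a carnosine dipeptidase, read 9.96, 8.06 and 8.70 in tubules and 11.56, 11.27 and 11.89 in whole kidneys, a difference of -2.67 ± 0.67 (limma adjusted p = 0.0423). Its call was lost without any 1 array but tubule replicate 1 (-2.81 to -2.23, limma adjusted p 0.0796 to 0.161) and with no scaling (-1.73, limma adjusted p = 0.129). Acy1, which frees amino acids from their acetylated forms, differed by -1.62 ± 0.40 (limma adjusted p = 0.0406), and Anpep, the brush border aminopeptidase N, by -1.75 ± 0.40 (limma adjusted p = 0.0250). Neither was called with median centring (-1.17 and -1.32, limma adjusted p = 0.247 and 0.190). Acy1 also lost it without any 1 of the 6 arrays (-1.81 to -1.45, limma adjusted p 0.0636 to 0.136), and Anpep without any 1 but tubule replicate 3 (-1.83 to -1.58, limma adjusted p 0.0517 to 0.0934). The list of brush border receptors and peptidases had 4 named members, these 2 with Folr1 and Cubn, which were not called. It therefore held 2 lower calls, and 0 with median centring or no scaling. Of the 2, only Anpep is a brush border enzyme.

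The lists of energy and xenobiotic metabolism are small, and their counts are to be read against the 24.2% of all named genes that were called. Of 9 genes of fatty acid uptake and oxidation 1 was higher and 0 lower, with a median of 0.50. The 1 was Acsm2, a medium-chain acyl-CoA synthetase, by 1.81 ± 0.28 (limma adjusted p = 0.00219). Decr1, a reductase for unsaturated fatty acids, differed by 0.08 ± 0.40, with a 95% interval of -0.78 to 0.93. Of 5 genes of the mitochondrial list 1 was higher, the complex I gene Ndufs1, by 1.22 ± 0.31 (limma adjusted p = 0.0454). The Ndufs1 call was lost on median centring (1.70, limma adjusted p = 0.0572) and on leaving out any 1 array but tubule replicate 1 (1.04 to 1.27, limma adjusted p 0.0933 to 0.156). Of 9 xenobiotic genes 3 were higher and 0 lower. These were Aadac, an arylacetamide deacetylase (3.46 ± 0.57, limma adjusted p = 0.00371), Ugdh, which makes UDP-glucuronate (2.18 ± 0.30, limma adjusted p = 0.000873), and Cyp2c23, an arachidonic acid epoxygenase of rat kidney (1.52 ± 0.29, limma adjusted p = 0.00881).

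The list of glutathione and Nrf2-responsive genes held 0 higher and 3 lower calls among 7, with a median of -0.81. Among all named genes 7.98% were lower. Osgin1, an oxidative stress-induced growth inhibitor gene, fell furthest of all named genes. It read 10.47, 9.84 and 9.91 in tubules and 14.34, 14.17 and 14.46 in whole kidneys, tight in both groups. The difference was -4.25 ± 0.56, a 19.0-fold higher signal in whole kidneys (limma adjusted p = 0.000698). Gss, glutathione synthetase, read 13.50, 13.03 and 13.004 against 15.58, 15.75 and 15.88, a difference of -2.56 ± 0.35 (limma adjusted p = 0.000842). Gstk1, a mitochondrial glutathione transferase, differed by -1.15 ± 0.28 (limma adjusted p = 0.0354) and was not called after median centring (-0.72, limma adjusted p = 0.464) or on leaving out any 1 of the 6 arrays (-1.23 to -1.01, limma adjusted p 0.0686 to 0.121). With no scaling Gss was at -1.46 and not called (limma adjusted p = 0.193), and Osgin1 was still called at -3.26 (limma adjusted p = 0.00335). Gsr, glutathione reductase, lay on the other side at 1.38 ± 0.47 and did not pass (limma adjusted p = 0.135).

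Of 6 S100 and annexin genes, calcium-binding proteins found in many cell types and raised in injured or immature epithelium, 0 were higher and 4 lower, with a median of -2.28. Among all named genes 7.98% were lower. S100a11 read 10.95, 10.98 and 10.45 in tubules and 14.002, 13.39 and 14.48 in whole kidneys. The groups were more than 2 log2 units apart, with a difference of -3.16 ± 0.44 or 8.96-fold (limma adjusted p = 0.00103). S100a6 was lower, differing by -2.82 ± 0.51 (limma adjusted p = 0.00629), S100a10 by -2.43 ± 0.38 (limma adjusted p = 0.00243) and Anxa2, the partner with which S100A10 forms a complex, by -2.13 ± 0.40 (limma adjusted p = 0.00777). Lgals1, galectin-1, a gene of stromal and vascular cells among others, was lower, differing by -2.45 ± 0.43 (limma adjusted p = 0.00528). With no scaling S100a11 was the 1 of these 5 still called (-2.14, limma adjusted p = 0.0430), the others lying between -1.83 and -1.08 with limma adjusted p from 0.0921 to 0.352. With median centring Anxa2 was the 1 that failed (-1.71, limma adjusted p = 0.0781). With only the 6 saline arrays in the fit, S100a6, Lgals1 and Anxa2 were not called. Their differences were -2.81, -2.45 and -2.15 (limma adjusted p = 0.0611, 0.0853 and 0.104). S100a4 and Anxa1 both differed by -0.64 and were not called (limma adjusted p = 0.435 and 0.496).

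Tubular injury genes did not set the saline tubules above whole kidneys. Havcr1, which encodes the injury molecule KIM-1, read 8.85, 9.52 and 7.97 in tubules and 9.16, 9.02 and 8.40 in whole kidneys. The arrays overlapped, and the difference was -0.08 ± 0.41 with a 95% interval of -0.95 to 0.79. Spp1, osteopontin, made by the loop of Henle and distal tubule as well as by injured cells, differed by -1.95 ± 0.58 and did not pass (limma adjusted p = 0.0884), and Lcn2 by -1.33 ± 0.51 (limma adjusted p = 0.193). Of the 6 injury genes 0 were higher and 2 lower, both of them members of the S100 and annexin list. The 5 genes listed as p53 targets and apoptosis regulators, 3 immediate early genes, 3 chemokines and 3 interferon-stimulated genes held 0 calls by limma among 14 genes. Their differences ran from -1.40 to 1.82, and 2 of them, Ccl20 and Isg20, had an unadjusted limma p under 0.05. Irf1, an interferon-responsive transcription factor, differed by -0.01 ± 0.36, with a 95% interval of -0.77 to 0.76. Ccl20 was the 1 gene of these with a missing array, whole-kidney replicate 1.

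Of 3 genes of secreted plasma proteins, Spp2 was higher, and Gc and Tf were lower. Tf, transferrin, read 11.54, 9.80 and 10.00 in tubules and 13.15, 12.94 and 13.26 in whole kidneys, a difference of -2.67 ± 0.46 (limma adjusted p = 0.00470) that was -1.64 with no scaling and not called (limma adjusted p = 0.152). Of 7 hormone receptor and steroid genes 0 were higher and 1 lower. The 1 was Prlr, the prolactin receptor, at 11.42, 10.62 and 10.02 in tubules and 13.12, 13.07 and 13.14 in whole kidneys, a difference of -2.43 ± 0.42 (limma adjusted p = 0.00524). With no scaling it was -1.39 and not called (limma adjusted p = 0.223). Pth1r, the parathyroid hormone receptor of proximal tubules, differed by -0.04 ± 0.37, and the angiotensin receptor gene Agtr1a by 1.75 ± 0.51 without passing (limma adjusted p = 0.0830).

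Of 4 genes of the cytoskeleton list 3 were higher, against 16.2% of all named genes. The median of 3.71 was the highest of the 25 lists with at least 3 named members. The lists were written with earlier results of these data known, so this rank is a description. Epb41l3, a band 4.1 protein that ties membrane proteins to actin, read 14.06, 14.64 and 15.13 in tubules and 9.51, 6.79 and 8.59 in whole kidneys. The whole-kidney arrays were widely spread but all far below, and the difference was 6.31 ± 0.63 or 79.5-fold (limma adjusted p = 8.80e-05). Dgkg, on the list though it encodes a diacylglycerol kinase and not a skeleton protein, read 13.63, 13.59 and 13.66 in tubules against 10.26, 9.49 and 9.37. The difference was 3.92 ± 0.41 (limma adjusted p = 0.000114). Add3, gamma-adducin of the membrane skeleton, was higher by 3.504 ± 0.45 (limma adjusted p = 0.000634). Actn4, alpha-actinin-4, also a podocyte gene, differed by 0.10 ± 0.74, with tubule arrays from 10.40 to 13.07. Espn, espin, an actin-bundling protein of microvilli that was on no list, was lower, differing by -2.46 ± 0.45 (limma adjusted p = 0.00692), and at -1.45 not called with no scaling (limma adjusted p = 0.189).

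Nox4, the NADPH oxidase that makes hydrogen peroxide and is abundant in renal tubules, was on no list either. It read 12.32, 13.21 and 13.16 in tubules and 7.92, 7.77 and 7.76 in whole kidneys. The difference was 5.08 ± 0.50, or 33.8-fold (limma adjusted p = 7.49e-05). St6galnac3, a sialyltransferase, was higher by 3.30 ± 0.66 (limma adjusted p = 0.0125), and lost the call without tubule replicate 3, whole-kidney replicate 2 or whole-kidney replicate 3 (2.72 to 3.19, limma adjusted p 0.0525 to 0.0553).

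**Figure D3:**
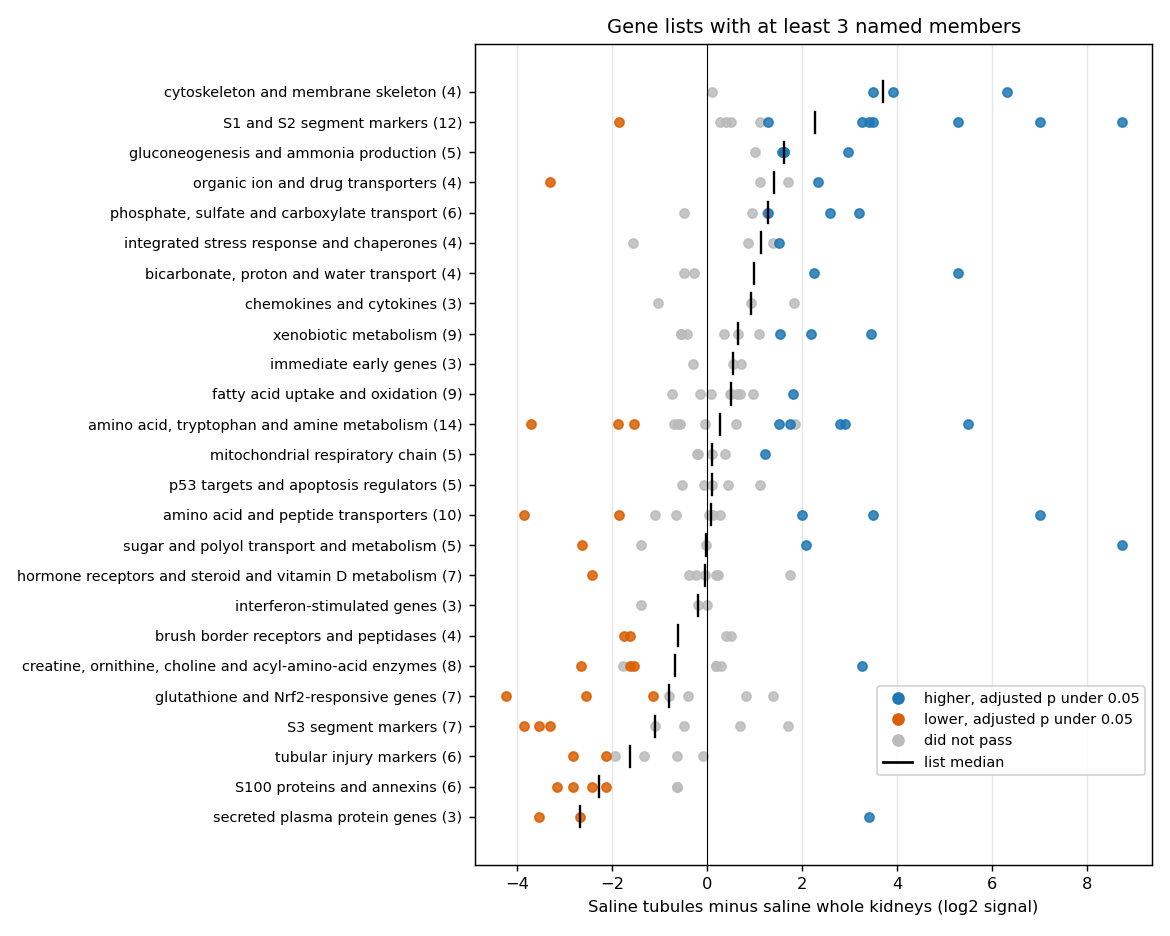
Log2 difference, saline tubules minus saline whole kidneys (horizontal axis), for each named member (points) of the 25 gene lists with at least 3 named members, with a black tick at the list median and the number of members in brackets. Blue points passed as higher, orange as lower and grey did not pass, and all grey points lie within 2 log2 units of 0.

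The same compartments were compared at 10 mg/kg cisplatin, on 6 other arrays. The comparisons share no array, but they share the normalization and each probe's estimate of spread, both taken from all 15 arrays. Calls made in both are therefore not independent. At 10 mg/kg limma called 2813 probes (10.6%), 1557 higher in tubules (5.85%) and 1256 lower (4.72%). The share of higher calls was 55.4%, 69.1% with median centring and 85.02% with no scaling. Of the 565 probes higher at saline, 307 (54.3%) were also called higher at 10 mg/kg, which is 19.7% of the 1557, and 5 were called lower. Of the 389 lower at saline 234 (60.2%) were lower again, 18.6% of the 1256, and 1 was higher. Of the named genes 86 (21.4%) were higher and 61 (15.2%) lower at 10 mg/kg, 147 (36.7%) in all. Among the 65 higher named genes at saline 37 were higher again and 2 lower, and the median difference was 2.37 at saline and 1.47 at 10 mg/kg. Among the 32 lower named genes 15 were lower again and 0 higher, with medians of -2.08 and -1.21. These genes were picked for passing at saline, so the medians are a description with no test.

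Slc5a2 was 14.78 ± 0.27 (SD, n = 3) in tubules and 9.19 ± 1.86 in whole kidneys at 10 mg/kg, a difference of 5.59 ± 0.69 (limma adjusted p = 0.000300). Slc7a9 differed by 5.22 ± 0.34 (limma adjusted p = 8.17e-06), with whole kidneys at 7.24 ± 0.12. Lamp2, a lysosomal membrane protein gene singled out after its values were seen, differed by 2.35 ± 0.34 at saline and 4.22 ± 0.34 at 10 mg/kg (limma adjusted p = 0.00159 and 3.49e-05). Aadac, higher at saline, differed by -0.37 ± 0.57 at 10 mg/kg (limma adjusted p = 0.767), and Osgin1, lower at saline, by -1.08 ± 0.56 (limma adjusted p = 0.270). For none of these 5 genes did the change between treatments pass the limma test of the interaction, the adjusted p of which ranged from 0.101 for Aadac to 0.261 for Slc5a2.

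The interaction, the difference at 10 mg/kg minus that at saline, was called by limma at 10 probes (0.0376%), 5 in each direction (0.0188% each), and 3 of them had a name (0.748% of named genes). Tnfsf13, the cytokine APRIL of the tumour necrosis factor family, was higher in tubules at saline and lower in them at 10 mg/kg. Its saline signals were 13.11, 13.28 and 13.30 in tubules and 11.59, 11.27 and 11.42 in whole kidneys, a difference of 1.81 ± 0.33 (limma adjusted p = 0.00692). At 10 mg/kg the means were 12.33 ± 0.25 (SD, n = 3) and 13.67 ± 0.54, a difference of -1.34 ± 0.33 (limma adjusted p = 0.0178), and the interaction was -3.14 ± 0.46 (limma adjusted p = 0.0313). Nrg1, the epidermal growth factor family ligand neuregulin 1, differed by -0.92 ± 0.49 at saline without passing (limma adjusted p = 0.382) and by 3.99 ± 0.49 at 10 mg/kg (limma adjusted p = 0.000307). Asns, asparagine synthetase and a target of the integrated stress response, differed by -1.57 ± 0.46 at saline (limma adjusted p = 0.0792) and 3.001 ± 0.46 at 10 mg/kg (limma adjusted p = 0.000948). The interactions of Nrg1 and Asns both had a limma adjusted p of 0.0280. Xrcc4, a gene of DNA end joining, was also called in opposite directions, at 2.32 ± 0.46 (limma adjusted p = 0.0115) and -1.69 ± 0.46 (limma adjusted p = 0.0297), and its interaction of -4.01 ± 0.65 just missed the threshold (limma adjusted p = 0.0501). Xrcc4 was dim, at a mean percentile of 1.91 in 10 mg/kg tubules and 15.5 in saline whole kidneys. Its saline call was lost with only the 6 saline arrays in the fit (2.39, limma adjusted p = 0.0997). The interactions of Tnfsf13, Nrg1 and Asns kept their sign in all 21 alternatives but not their calls: Asns was called in 9, Nrg1 in 8 and Tnfsf13 in 6, with limma adjusted p up to 0.105, 0.164 and 0.221. Leaving out any 1 saline tubule array ended all 3 calls. With only the 12 arrays compared in the fit, limma called 0 interactions over all probes, with 2544 at an unadjusted p under 0.05. The lower call of Tnfsf13 at 10 mg/kg was lost with median centring (-1.02, limma adjusted p = 0.198).

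**Figure D4:**
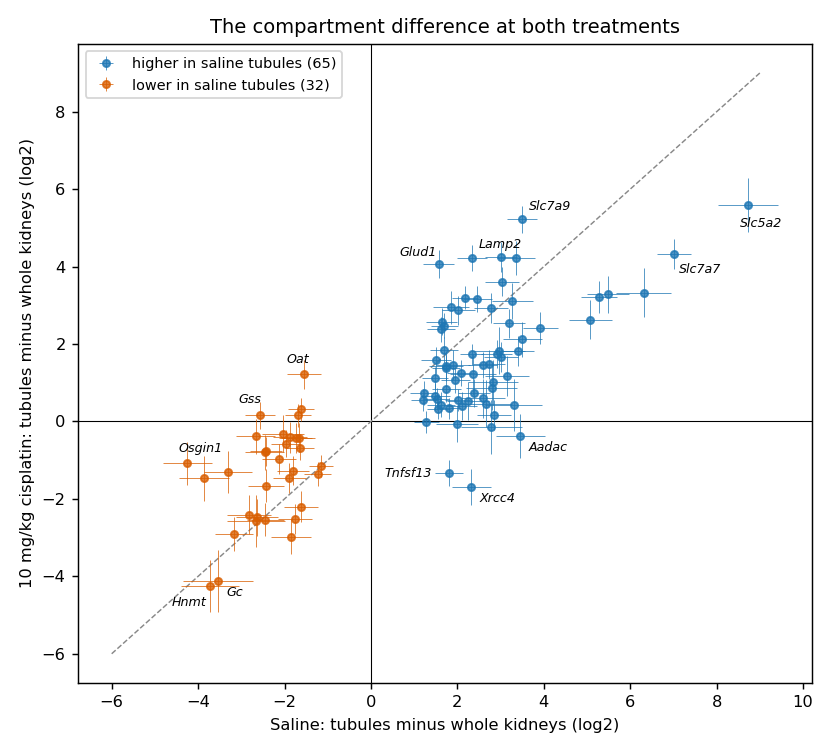
Log2 difference between tubules and whole kidneys at saline (horizontal axis) and at 10 mg/kg cisplatin (vertical axis) for the 65 named genes higher and the 32 lower in saline tubules, with bars of 1 SE and a dashed line of equal differences. Most points keep their side of 0, and Tnfsf13 and Xrcc4 are the 2 genes called in opposite directions.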

How the data were processed

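RNA of 15 samples was hybridised as digoxigenin-labelled cRNA to the 1-colour, chemiluminescent Applied Biosystems rat genome survey array, per the labels' protocols. Each deposited file lists the intensity of every probe, unlogged, per the file headers, with no background or detection column. The scanner software and any correction by the authors are not named in the sources used here. The authors' series table holds 1219 probes as a ratio, each equal to the deposited signal divided by 1 constant per array, and it served as an alternative.

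Log2 intensities of the 15 arrays were brought to common quantiles with limma 3.58.1 (R 4.3.3). No background was subtracted and dim probes were kept. Of 26857 probes, 26601 with 2 or more values in every group entered the model and 256 did not. lmFit estimated 5 group means, and eBayes gave two-sided tests of the contrasts, adjusted by Benjamini-Hochberg across the 26601 probes with a threshold of 0.05. Residual degrees of freedom were 10 and prior ones 3.92. Precision is limited by 3 arrays per group: with probes split into 4 equal groups by brightness, the median residual SD was 0.349 in the brightest group and 0.715 to 0.814 in the others.

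The platform annotation gave 1 gene symbol to 401 probes, several to 2 probes (left unnamed) and none to 26454. All 401 matched the RefSeq table of GRCr8. Named were the 15 largest rises and falls among called genes whose groups did not overlap, members of 32 gene lists (668 genes, 130 with a named probe), up to 6 members with a 95% interval within 1 log2 unit of 0, interaction calls and genes called in opposite directions. Lamp2 and Blvra, and the genes of the closing observations that are on no list, fall outside this rule and were chosen after their values were seen. The comparison, lists and named genes were chosen with earlier results of these data known. Lists are described by counts and medians, with no list test. Same-numbered tubule and whole-kidney arrays did not deviate together (r of -0.0561 to 0.0396 at saline), so the numbers were not taken as pairs. Alternatives covered scaling, arrays in the fit, dim probes, variance trend, array weights, a replicate block, complete probes, the series table and each array left out.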

Additional observations from a re-analysis of the deposited data

Results flagged for a closer look

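The tubule minus whole-kidney difference itself differed between saline and 10 mg/kg for 3 named genes by the limma interaction test. The interaction was -3.14 for Tnfsf13 (limma adjusted p = 0.0313), 4.91 for Nrg1 and 4.57 for Asns (limma adjusted p = 0.0280 for both). Of 21 alternatives, 6 kept the call of Tnfsf13, 8 that of Nrg1 and 9 that of Asns, and leaving out any 1 saline tubule array ended all 3. Asns was dim in saline tubules, at 6.41, 5.68 and 6.52 on the log2 scale, and lay at 10.22 ± 0.12 (SD, n = 3) in tubules at 10 mg/kg, against 7.22 ± 0.66 in whole kidneys. Nrg1 lay at 11.28 ± 0.59 in tubules and 7.29 ± 0.78 in whole kidneys at 10 mg/kg. Groups of 3 arrays were too small to look for single outlying arrays gene by gene.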

How the results depend on the processing

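None of the 57 called genes named by the rule changed sign at saline under any alternative. No named gene called at saline was called in the opposite direction there under any alternative. The calls at 10 mg/kg were checked for a change of sign only in Xrcc4 and Tnfsf13. The saline probe count of 954 was 265 with only the 6 arrays compared in the fit, 1659 with an intensity trend and 406 on the series table, which holds 1219 probes, 553 to 795 with 1 array left out, and lowest without tubule replicate 2 (553), tubule replicate 3 (560) or whole-kidney replicate 3 (568). The named count of 97 was 41 with only the arrays compared, 157 on the series table and 64 to 80 with 1 array left out, the 64 without tubule replicate 3. The 10 mg/kg count of 2813 was 1550 with median centring, 1248 with no scaling, 1217 with only the arrays compared, 450 on the series table and 1767 to 2425 with 1 array left out. The interaction count of 10 was 2 with median centring or no scaling, 0 by limma with only the arrays compared (2544 at an unadjusted p under 0.05), 29 without the dimmest 25% of probes, 304 with a trend, 16 with array weights, 176 on the series table and 0 to 15 with 1 array left out. A replicate block gave 806 saline probes, 89 named genes and 0 interactions by limma (2735 at an unadjusted p under 0.05), and the shared numbers show no pairing. No scaling kept 65 of 65 higher named calls and 6 of 32 lower ones, and median centring 62 and 16. Of 57 called genes named by the rule, 23 lost no call in any alternative and 20 lost it without at least 1 array. With no background measure, the level of a dim probe is uncertain.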

Other observations

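Several genes on none of the lists differed between saline tubules and whole kidneys. They were grouped here after their values were seen, and the groups have no test. Genes of lysosomal proteins were among the higher ones: the carboxypeptidases Ctsa (3.01 ± 0.39, SE, limma adjusted p = 0.000621) and Scpep1 (2.46 ± 0.34, limma adjusted p = 0.000976), the membrane protein Lamp2 (2.35 ± 0.34, limma adjusted p = 0.00159) and the aspartic protease Napsa (1.70 ± 0.31, limma adjusted p = 0.00728). Napsa read 15.78, 15.87 and 15.70 in tubules and 14.05, 14.01 and 14.19 in whole kidneys, with little spread in either. Ctbs, a chitobiase, differed by 1.45 ± 0.49 and Cpq, a secreted dipeptidase also found in lysosomes, by 0.69 ± 0.31, and neither passed (limma adjusted p = 0.136 and 0.281).

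The 2 platelet-derived growth factor genes with a name lay on opposite sides. Pdgfc was higher in tubules, by 2.60 ± 0.51 (limma adjusted p = 0.0102), and Pdgfa was lower, by -1.64 ± 0.33 (limma adjusted p = 0.0123), with 12.14, 12.49 and 12.33 in tubules and 14.19, 13.77 and 13.91 in whole kidneys. Kcnj16, the basolateral potassium channel subunit Kir5.1, was higher by 2.77 ± 0.39 (limma adjusted p = 0.00116). Pdp2, a phosphatase that switches pyruvate dehydrogenase on, was higher by 2.01 ± 0.29 (limma adjusted p = 0.00135), while its relative Pdp1 (1.06 ± 0.40) and the opposing kinase gene Pdk2 (0.28 ± 0.84) did not pass (limma adjusted p = 0.184 and 0.917). The transcription factor gene Hnf4a, a regulator of proximal tubule identity, read 9.64, 10.06 and 12.22 in tubules and 10.92, 11.03 and 10.58 in whole kidneys, a difference of -0.20 ± 0.93 whose 95% interval ran from -2.19 to 1.80. Cdh16, the kidney-specific cadherin found along most of the nephron, differed by 0.44 ± 0.31 (limma adjusted p = 0.532).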
